A study of Rattus norvegicus with 13 samples.

Results

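Radial glia identity genes were examined in the posterior ventricular zone (VZ) of newborn rats, in 7 control pups and 6 pups exposed to propylthiouracil (PTU) through their mothers. The genes were chosen by name: *Vim*, *Nes*, *Pax6*, *Fabp7*, *Hopx*, *Tnc*, *Ptprz1*, *Lifr* and *Prom1*. Of these 9 genes, 8 had a value, each in 1 transcript of the 14716 transcripts listed. *Ptprz1* was not analysed here.

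All pups were Long Evans males on postnatal day (PN) 2, with 1 pup taken per litter. PTU blocks thyroid hormone synthesis, and it was given to the pregnant dams in their drinking water at 3 ppm, while control dams received 0 ppm. The study describes PTU exposed pups as hypothyroid and controls as euthyroid. It measured the hormones in serum pooled from littermates and in the telencephalon of female pups. The ventricular epithelium was cut out by laser from cresyl violet stained sections, where it was recognized by its pseudostratified shape, so each sample is a small piece of tissue and not a sorted cell type. RNA from this tissue was partly degraded according to the study's methods, and how RNA integrity bears on the values was not tested.

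Radial glia are the neural stem cells of the developing forebrain. They line the ventricle, send a long fiber towards the pial surface, divide to give neurons and glia, and guide migrating neurons along that fiber. The members cover different sides of this identity: the intermediate filaments of the fiber (*Vim*, *Nes*), transcriptional regulators (*Pax6*, *Hopx*), a cytoplasmic lipid carrier (*Fabp7*), matrix and signal reception (*Tnc*, *Ptprz1*, *Lifr*), and the apical membrane that faces the ventricle (*Prom1*). *Hopx*, *Tnc*, *Ptprz1* and *Lifr* are also known from outer radial glia, a population that has lost its ventricular contact.

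Thyroid hormone acts through nuclear receptors that bind DNA at repeats of the motif AGGTCA, so the start regions of the members are shown for a pair of genes on which the data bear. *Vim* is shown because it encodes the filament by which radial glia are commonly stained and had one of the lowest p-values among the members, and *Fabp7* because it was the sole member whose window held that motif. Both are the 250 bases before the annotated start in RefSeq, build GRCr8, which is not the build of the deposited values. The window of *Vim* is chr17:81577011-81577260 and that of *Fabp7* is chr20:37669356-37669605, both on the plus strand. Capitals mark matches on either strand to the CCAAT box (CCAAT), the GC box (GGGCGG), the TATA box (TATAAA) or the receptor motif (AGGTCA).
Vim: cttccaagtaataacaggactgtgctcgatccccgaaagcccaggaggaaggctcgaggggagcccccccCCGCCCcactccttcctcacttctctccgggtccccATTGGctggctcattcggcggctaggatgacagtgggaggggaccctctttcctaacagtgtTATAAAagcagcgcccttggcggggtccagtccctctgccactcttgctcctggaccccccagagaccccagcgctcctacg
Fabp7: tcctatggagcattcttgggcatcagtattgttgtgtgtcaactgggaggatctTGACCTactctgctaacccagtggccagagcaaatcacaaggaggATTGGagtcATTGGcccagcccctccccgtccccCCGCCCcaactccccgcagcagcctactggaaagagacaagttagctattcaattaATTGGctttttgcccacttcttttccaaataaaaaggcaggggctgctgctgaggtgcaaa

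The *Vim* window held 1 CCAAT box, 1 GC box and 1 TATA box. In *Fabp7* there were 3 CCAAT boxes, 1 GC box and 1 receptor motif, which lay 190 bases before the start on the opposite strand. The receptor motif was found in 14.1% of the 33469 promoters of the same length, a CCAAT box in 34.0%, a GC box in 30.5% and a TATA box in 12.9%. All 8 measured members had a window in the table, *Prom1* with 2. GC boxes occurred in *Fabp7*, *Lifr*, *Nes*, *Prom1*, *Tnc* and *Vim*, while *Pax6* and *Hopx* held none of the motifs. The direct repeat 4, a pair of receptor motifs in tandem, was in no member window and in 0.00299% of all promoters. These are letter matches in short windows and do not show binding.

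The values are normalized counts, that is, estimated reads per transcript divided by a size factor for each pup. Between 22.3 and 44.4 M estimated reads (M, mega) lay behind each pup, and the fewest reads behind a member value were 298 (*Hopx* in control pup 4). One library stood apart: on the first principal component PTU pup 1 was at -70.8 and the other 12 pups lay between -29.1 and 28, and its median correlation with its own group was 0.938 against 0.956 to 0.970 in the other pups. The differences of the members are therefore given with and without it.

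All 8 measured members had a lower mean in PTU exposed pups than in controls, from 7.50% lower (*Lifr*) to 36.6% lower (*Hopx*), but none passed the threshold after adjustment. The lowest p-values were those of *Hopx*, *Pax6* and *Vim*, the means of the latter pair being 24.7 and 21.4% lower. *Nes* and *Tnc* followed, and *Lifr* had the smallest difference. In limma, with Benjamini-Hochberg adjustment over 14606 tested transcripts, no member had an adjusted p of at most 0.05, and neither did any other transcript (0.0% called). At an unadjusted p under 0.05, 5 of the 8 members were lower in PTU exposed pups (*Vim*, *Nes*, *Pax6*, *Hopx* and *Tnc*), against 8.2% of all tested transcripts, and 0 of 8 were higher, against 8.11%. The groups overlapped for all 8 members, and 0.26% of all transcripts were lower without overlap. The median log2 fold change was -0.26 for the members and 0.00 for all tested transcripts. Without PTU pup 1 the median of the members was -0.24, and 3 of 8 were lower at an unadjusted p under 0.05. Of all 14606 tested transcripts, 1121 were then lower at that p. The log2 fold changes were then -0.30 for *Vim* and *Pax6*, -0.18 for *Nes*, -0.60 for *Hopx*, and -0.23 for *Fabp7* and *Tnc*. Those of *Lifr* and *Prom1* were -0.15 and -0.24. Fewer radial glia in the captured tissue and less RNA per radial glia cell cannot be told apart in such samples.

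**Figure D1:**
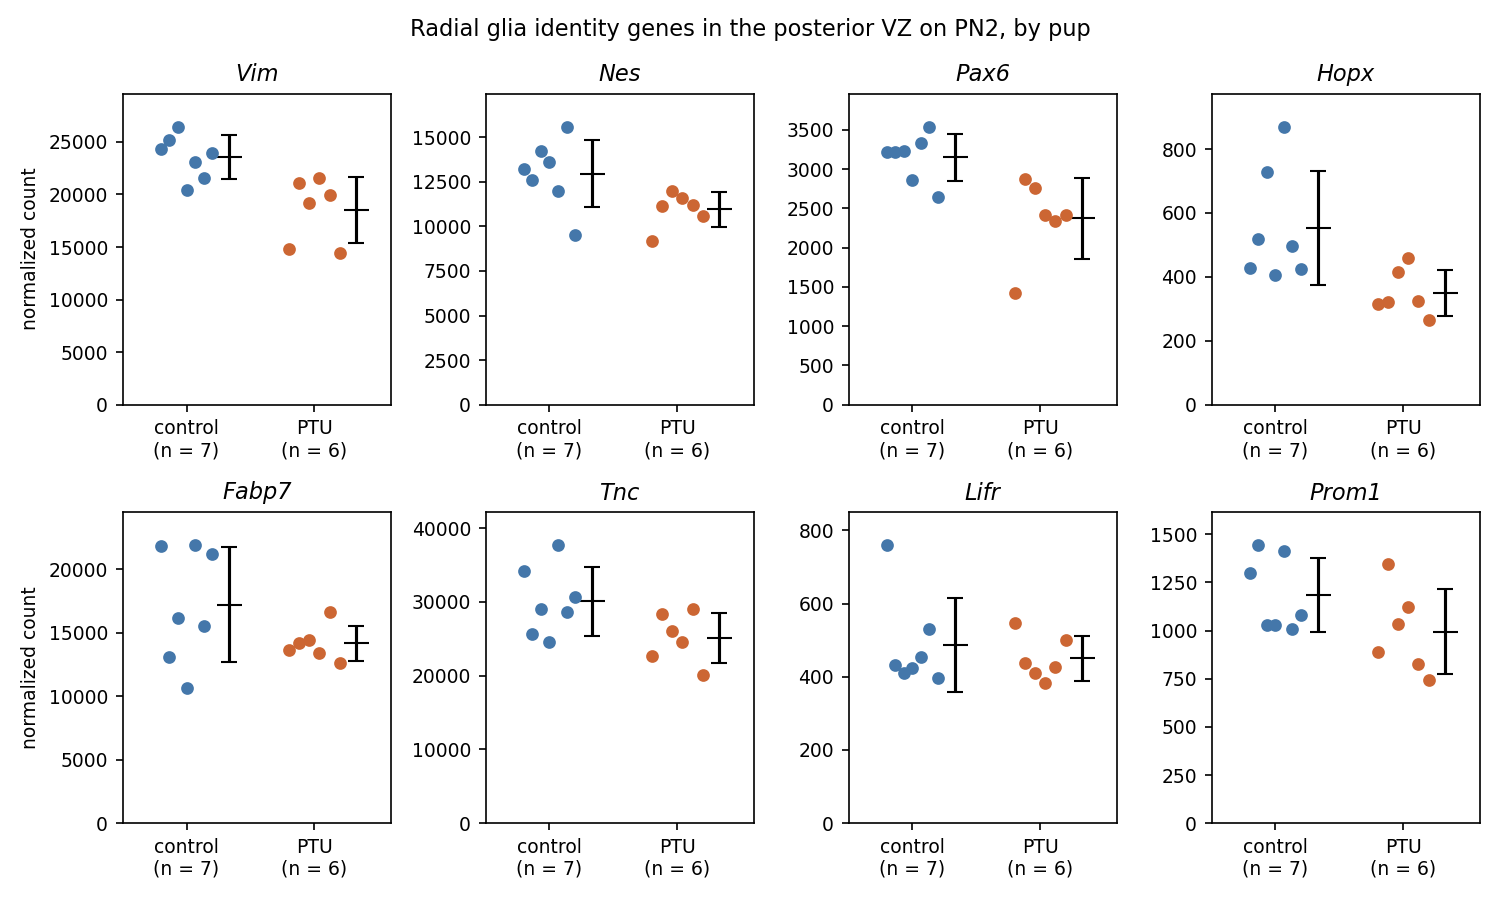
Normalized counts of the 8 measured members (vertical axes from 0) in each pup, with control pups in blue (n = 7) and PTU exposed pups in orange (n = 6), and bars for the group mean and SD. Every PTU exposed pup sits below the control mean for Vim, Nes, Pax6, Hopx, Fabp7 and Tnc, whereas the groups overlap in all panels.

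Vimentin is the main filament of the radial fiber. In controls the normalized count of *Vim* was 20384 at the lowest, 23917 at the median and 26433 at the highest, and in PTU exposed pups it was 14399, 19574 and 21530. All 6 PTU exposed pups lay below the control mean, 4 of them below every control, and 6 of the 7 controls lay above every PTU exposed pup. The means were 23548 ± 2077 (SD, n = 7) and 18505 ± 3132 (SD, n = 6), a log2 fold change of -0.36 (SE 0.109, adjusted p = 0.152 in limma). The exact permutation test over pups (two-sided, unadjusted, as for all members) gave p = 0.00408. The lowest values were those of PTU pups 6 and 1, at 14399 and 14819, while the other 4 pups lay between 19234 and 21530. Of all tested transcripts, 10.2% had a lower log2 fold change.

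Nestin is the filament by which neural stem cells are usually recognized. *Nes* ranged from 9528 to 15587 in controls (median 13233) and from 9180 to 11978 after PTU exposure (median 11187). The PTU exposed pups were close together and all lay below the control mean, but control pup 7, at 9528, was lower than 5 of them. The means were 12969 ± 1907 (SD, n = 7) and 10955 ± 987 (SD, n = 6), which did not pass the test (log2 fold change -0.23, SE 0.103, adjusted p = 0.279 in limma, exact permutation p = 0.0507).

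PAX6 is the homeodomain factor that specifies cortical radial glia and drives neurogenesis. For *Pax6* the controls lay between 2645 and 3538 with a median of 3222. In PTU exposed pups the values were 1423 at the lowest, 2413 at the median and 2875 at the highest. Of the PTU exposed pups, 4 were below every control and 5 of the 7 controls were above every PTU exposed pup. The means were 3150 ± 299 (SD, n = 7) and 2372 ± 512 (SD, n = 6), a log2 fold change of -0.44 (SE 0.132, adjusted p = 0.150 in limma, exact permutation p = 0.00408). PTU pup 1 was far below its group at 1423, and without it the log2 fold change of *Pax6* was -0.30 (adjusted p = 0.176 in limma).

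HOPX is an atypical homeodomain protein that does not bind DNA and is found in quiescent stem cells. *Hopx* had the lowest log2 fold change of the members. Its values were 404 at the lowest, 497 at the median and 870 at the highest in controls, and 264, 324 and 459 in PTU exposed pups. In 4 PTU exposed pups *Hopx* was below every control, while PTU pups 3 and 4, at 416 and 459, reached into the lower controls. The spread among controls was wide (coefficient of variation 32.1%), with control pups 3 and 5 at 728 and 870. The means were 553 ± 178 (SD, n = 7) and 350.5 ± 72.2 (SD, n = 6), with a log2 fold change of -0.62 (SE 0.186, adjusted p = 0.150 in limma, exact permutation p = 0.00991). Of all tested transcripts, 2.88% had a lower log2 fold change.

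FABP7 carries fatty acids in radial glia, and its gene is known to depend on PAX6 in the cortex. *Fabp7* ranged from 10664 to 21876 in controls (median 16173) and from 12643 to 16650 after PTU exposure (median 13906). The PTU exposed pups lay inside the control range. Controls split widely, with pups 1, 5 and 7 at 21847, 21876 and 21226 and pup 4 at 10664, so that the coefficient of variation was 26.4% in controls and 9.73% in PTU exposed pups. The difference of the means, 17192 ± 4537 (SD, n = 7) against 14154 ± 1378 (SD, n = 6), gave a log2 fold change of -0.24 (SE 0.152, adjusted p = 0.437 in limma, exact permutation p = 0.185).

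Tenascin C is a matrix glycoprotein of the stem cell niche. *Tnc* was 24510 at the lowest, 29078 at the median and 37656 at the highest in controls, and 20143, 25356 and 28980 in PTU exposed pups. PTU pups 1 and 6 were below every control and the other 4 were within the control range. The log2 fold change was -0.25 (SE 0.116, adjusted p = 0.292 in limma, exact permutation p = 0.0542), from 30049 ± 4637 (SD, n = 7) to 25134 ± 3391 (SD, n = 6).

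LIFR is the receptor for leukemia inhibitory factor, which together with gp130 signals to STAT3 and maintains neural stem cells. *Lifr* ranged from 396 to 759 in controls (median 433) and from 382 to 546 after PTU exposure (median 432). The medians were nearly equal, and control pup 1 at 759 lay far above the other controls, of which the next was 531. The means were 487 ± 128 (SD, n = 7) and 451 ± 60.9 (SD, n = 6), with a log2 fold change of -0.09 (SE 0.149, adjusted p = 0.802 in limma, exact permutation p = 0.632). Without control pup 1 its sign turned, to 0.02.

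Prominin 1 marks the apical membrane of radial glia. *Prom1* ranged from 1009 to 1443 in controls (median 1080) and from 742 to 1346 after PTU exposure (median 962). PTU pups 1, 5 and 6 lay below every control, while PTU pup 2, at 1346, was above 5 of the 7 controls. The means were 1185 ± 192 (SD, n = 7) and 993 ± 221 (SD, n = 6), with a log2 fold change of -0.27 (SE 0.137, adjusted p = 0.340 in limma, exact permutation p = 0.110).

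The low values were not spread evenly over the PTU exposed pups. PTU pup 1 lay below every control for 6 members, PTU pup 6 for 5 and PTU pup 5 for 4, whereas PTU pups 2 and 3 did so for 1 member each (*Hopx* and *Vim*) and PTU pup 4 for 2 (*Pax6* and *Lifr*). On the first principal component PTU pups 1 and 6 were also the lowest, at -70.8 and -29.1. The same count over all transcripts was not made, so whether these counts are particular to the members was not tested. PTU pup 6 held the lowest value of all 13 pups for *Vim*, *Hopx*, *Tnc* and *Prom1*, and PTU pup 1 for *Nes* and *Pax6*. Among the controls, pup 4 was below the control mean for 7 of 8 members, and pup 5 was the highest of all pups for *Fabp7*, *Hopx* and *Tnc*. The number of members lower at an unadjusted p under 0.05 was 3 instead of 5 when PTU pup 1, PTU pup 6, control pup 1 or control pup 3 was left out. These 3 were *Vim*, *Pax6* and *Hopx* each time. Of all 14606 tested transcripts, 1198 were lower at that p with all pups. Without these pups, in the same order, the numbers were 1121, 897, 1165 and 912.

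**Figure D2:**
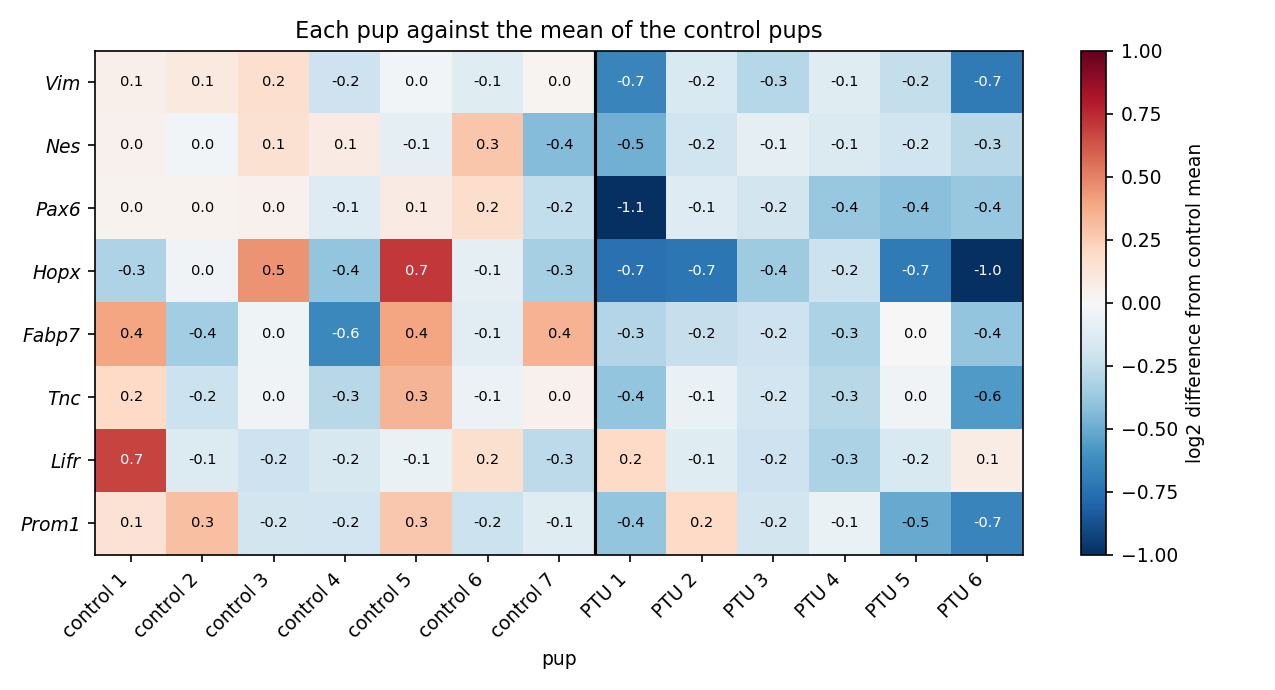
Log2 difference of each pup from the mean of the control pups (colour scale, blue lower and red higher) for the 8 measured members, with 7 control pups left of the black line and 6 PTU exposed pups right of it. The darkest blue columns are PTU pups 1 and 6, which lay below every control for 6 and 5 members. The same count over all transcripts was not made.

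The group difference of the members depends on how the pups are scaled. The 3 transcripts of highest count are unnamed, and they held 32.4 to 60.1% of a control pup's estimated reads and 23.9 to 57.0% of an exposed pup's. With one common total for all pups, the median log2 fold change of all tested transcripts moved from 0.00 to 0.20. With that scaling the log2 fold changes of the members ran from -0.42 (*Hopx*) to 0.11 (*Lifr*, which thereby changed sign), and 0 of 8 members were lower at an unadjusted p under 0.05. Over all 14606 tested transcripts the number lower at that p was 81 with this scaling, against 1198 with median ratio scaling. Relative to the median of all transcripts the log2 fold changes were -0.63 for *Hopx*, -0.44 for *Pax6* and -0.36 for *Vim*, which by construction returns nearly the values under median ratio scaling. When the 3 highest transcripts were left out of the total, a setting chosen after seeing the data, 8 of 8 members were lower, 4 of them at an unadjusted p under 0.05. Of all 14606 tested transcripts, 1123 were lower at that p in this setting.

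**Figure D3:**
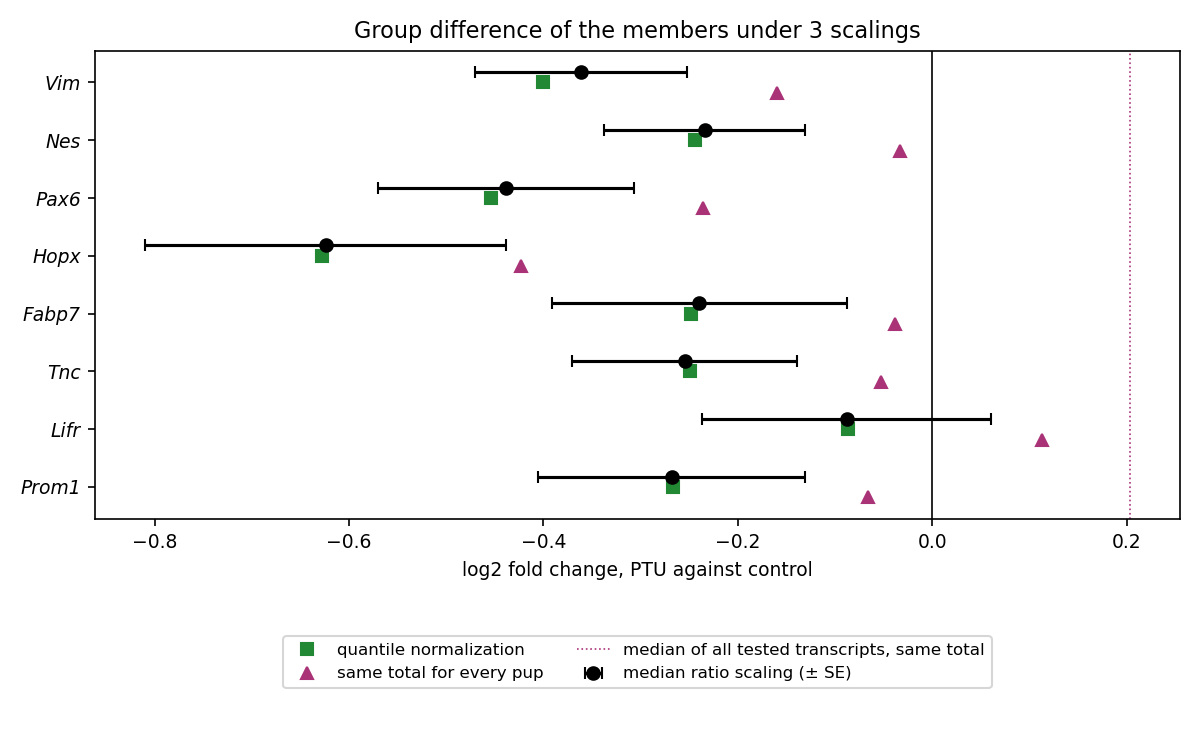
Log2 fold change of each member in PTU exposed against control pups under median ratio scaling (black, with SE), quantile normalization (green) and the same total for every pup (purple), with the median of all tested transcripts under the last scaling as a dotted line at 0.20. The purple points lie to the right of the black ones for all 8 members, and only that of Lifr is above 0.

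A ratio of 2 members within a pup does not depend on the scaling, and these ratios were also chosen after seeing the data. Over the 28 pairs of members, the difference of the mean log2 ratio between groups ran from -0.54 (*Hopx* to *Lifr*) to 0.39 (*Nes* to *Hopx*). The lowest exact permutation p was that of *Hopx* to *Tnc*, with a difference of -0.37 (exact permutation p = 0.0734, adjusted over the 28 pairs 0.582). Unequal change among the members was not detected in this test.

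Within the groups, *Fabp7* and *Tnc* varied together. Their log2 values, centred on the group means, correlated with r = 0.83 over 13 pups (permutation p = 0.00011, adjusted over 28 pairs 0.00308) and rho = 0.91 (permutation p = 3e-05, adjusted 0.00084). Controls 1, 5 and 7 were high and controls 2 and 4 low for both genes. Without the 2 pups farthest from the median of *Fabp7* the correlation was 0.77, and without PTU pup 1 it was 0.84. It was 0.92 within the controls and 0.83 within the PTU exposed pups. With one common total it was 0.95, and with the 3 highest transcripts left out of the total 0.86. The pups of a group share a size factor method and a capture procedure, and their litters differ.

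**Figure D4:**
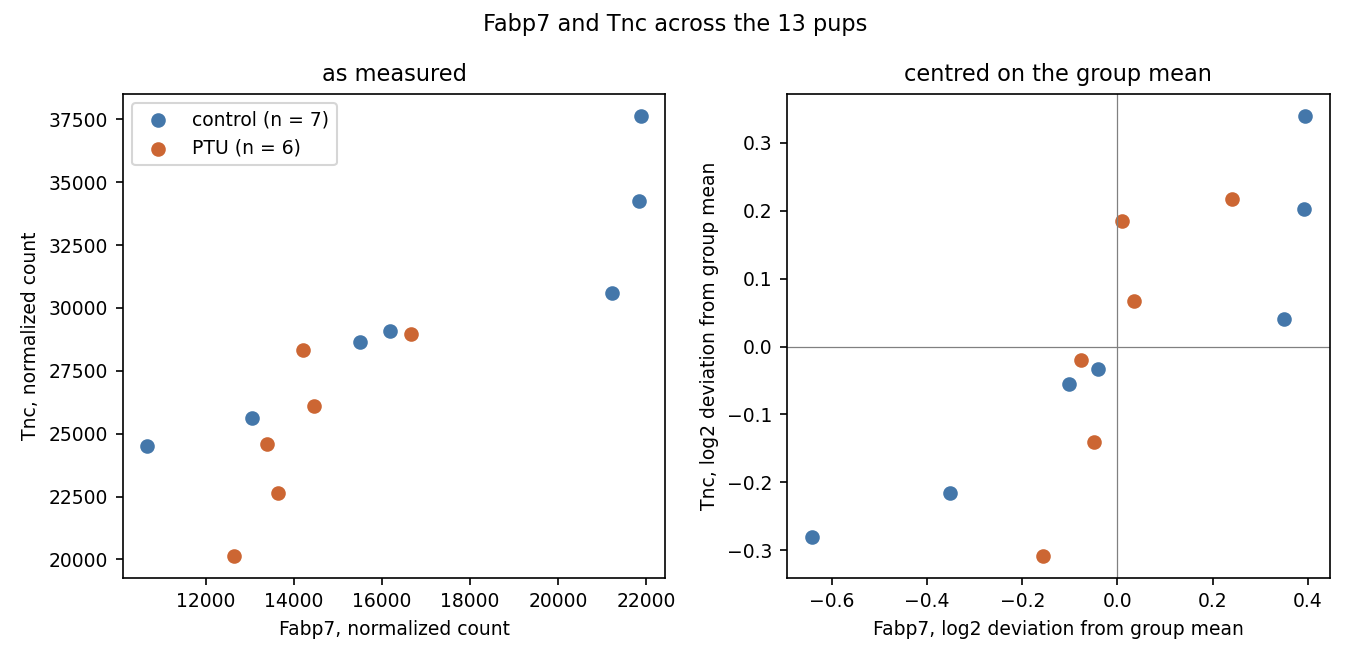
Normalized counts of Fabp7 (horizontal) and Tnc (vertical) in 7 control pups (blue) and 6 PTU exposed pups (orange), as measured on the left and as log2 deviations from the group mean on the right. Pups high for Fabp7 were high for Tnc in both groups, with r = 0.83 over the centred values.

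No other pair passed after adjustment. *Nes* and *Pax6* came next (r = 0.66, permutation p = 0.00514, adjusted 0.072, rho = 0.41, permutation p = 0.152), and without the 2 pups farthest from the median of *Nes* their correlation was 0.28. Of the 28 correlations 22 were positive, the median was 0.26 and the lowest was -0.38 (*Hopx* and *Lifr*). *Pax6* and *Fabp7* had r = 0.05 (permutation p = 0.786, adjusted 0.915).

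Further radial glia and neural stem cell genes were also lower in most cases. Of 20 such genes 19 were measured (*Sox3* was not), and 18 of these had a lower mean in PTU exposed pups, 10 of them at an unadjusted p under 0.05, while none passed after adjustment (smallest adjusted p = 0.122 in limma). Their median log2 fold change was -0.33. With one common total 14 of 19 were lower and 0 at an unadjusted p under 0.05 (81 of all 14606 transcripts were), and without PTU pup 1 the counts were 18 and 10. *Emx2*, a patterning factor of the cortex, was at 2193 ± 305 (SD, n = 7) in controls and 1463 ± 300 (SD, n = 6) in the exposed group (log2 fold change -0.59, SE 0.125). The Notch targets *Hes1* and *Hes5*, which hold radial glia in the stem cell state, had log2 fold changes of -0.58 and -0.57, and the receptor *Notch2* of -0.47. *Sox9*, a stem cell and gliogenic factor, had -0.37 and the cortical selector *Lhx2* -0.39. The others at an unadjusted p under 0.05 were *Phgdh*, an enzyme of serine synthesis (-0.42), *Mlc1*, a membrane protein of glia (-0.41), the glycolytic enzyme *Aldoc* (-0.34) and N-cadherin, *Cdh2* (-0.21). *Slc1a3*, the glutamate transporter GLAST and the gene of highest mean in this list, had -0.29 (adjusted p = 0.320 in limma). The study identified the VZ by staining for SOX2 protein in control animals. *Sox2* RNA was at 7107 ± 1050 (SD, n = 7) in controls and 6701 ± 969 (SD, n = 6) in the exposed group (log2 fold change -0.08), and was chosen after its values were seen.

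Genes around *Pax6* and *Hopx* gave a mixed picture. Of 8 partners and downstream factors of PAX6, 7 had a lower mean in PTU exposed pups (5 under one common total), but 1 at an unadjusted p under 0.05. This was *Eomes*, the factor of intermediate progenitors, at 2407 ± 570 (SD, n = 7) in controls and 1682 ± 220 (SD, n = 6) in the exposed group (log2 fold change -0.49, adjusted p = 0.150 in limma). *Meis2*, a homeodomain cofactor and the gene of highest mean in this list, had 0.19, and 0.33 without PTU pup 1 (unadjusted p = 0.00695, adjusted p = 0.205 in limma) and 0.10 without PTU pup 6. Of 8 further outer radial glia genes, 6 were lower, 2 at an unadjusted p under 0.05: *Itgb5*, an integrin subunit (-0.40), and *Stat3* (-0.22). Under the same total for every pup 3 of these 8 were lower. Without PTU pup 1, 7 of the 8 were lower and 1 at an unadjusted p under 0.05, while of the PAX6 list 5 of 8 were lower, 2 at that p, and 1 (*Meis2*) was higher at that p. *Fam107a*, a stress-inducible gene used as an outer radial glia marker, had -0.20, and 0.01 under the same total.

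Genes that act with the receptor and matrix members were counted as well. Of 12 measured genes of LIFR signaling, 8 were lower, 2 at an unadjusted p under 0.05, which were the ligand *Ctf1* (-0.59) and the transducer *Stat3*. Under the same total for every pup 3 of the 12 were lower, and without PTU pup 1 it was 7 of 12, with 0 at an unadjusted p under 0.05. The phosphatase *Ptpn11* had -0.01. Of 14 ligands, receptors and matrix partners of tenascin C and PTPRZ1, 10 were lower and 4 at an unadjusted p under 0.05: midkine, *Mdk* (-0.42), the chondroitin sulfate proteoglycans neurocan, *Ncan* (-0.32), and brevican, *Bcan* (-0.35), and the integrin subunit *Itga9* (-0.54). With the same total 5 of the 14 were lower. *Ncan* was at 50100 ± 9311 (SD, n = 7) in controls and 39720 ± 3878 (SD, n = 6) in the exposed group (adjusted p = 0.208 in limma). None of these genes passed after adjustment.

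Relatives of the filament and lipid carrier members lay on both sides of 0. Of 11 intermediate filament and linker genes other than *Vim* and *Nes*, 6 had a higher and 5 a lower mean after exposure, with a median log2 fold change of 0.00, and with one common total these were 8 and 3 with a median of 0.21. *Ina*, a filament of young neurons, was higher, at 1543 ± 438 (SD, n = 7) against 2483 ± 1046 (SD, n = 6), with a log2 fold change of 0.65 (0.48 without PTU pup 1) and an adjusted p of 0.208 in limma. *Plec*, a linker of filaments, had -0.27 (adjusted p = 0.255 in limma), and *Macf1*, a linker of actin and microtubules, 0.04. Of 3 relatives of *Fabp7*, *Fabp3* was measured and had 0.11, and *Fabp4* and *Fabp5* were not.

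Markers of other cell types were counted beside the members, and none of them passed after adjustment (smallest adjusted p = 0.143 in limma), although 1 astrocyte marker did without PTU pup 2. All 10 choroid plexus markers, led by *Ttr* and *Kl*, were lower in PTU exposed pups, 5 at an unadjusted p under 0.05, and their summed level was 49500 to 139300 in controls and 23250 to 99240 in PTU exposed pups. Of 10 neuron markers, led by *Dcx* and *Map2*, 9 were higher, 5 at an unadjusted p under 0.05, with sums of 57530 to 86100 and 74870 to 119200. The highest neuron sum was that of PTU pup 1, which also had low values for 6 members, and without that pup 8 of 10 were higher, 3 at an unadjusted p under 0.05. Of the ependymal markers (*Dnah5* and *Tekt1* highest, *Foxj1* not measured) 6 of 7 were lower, 3 at an unadjusted p under 0.05, with sums of 2379 to 4692 and 1886 to 3740, and without PTU pup 1 the counts were 5 and 2. Astrocyte markers, among them *Aqp4* and *Gja1*, were lower in 7 of 7 cases, 2 at an unadjusted p under 0.05, with sums of 28460 to 36640 and 20070 to 32380. The choroid plexus markers lower at an unadjusted p under 0.05 numbered 3 without PTU pup 2, 6 without PTU pup 1 and 10 with array weights. Under the same total for every pup 10 choroid plexus, 3 ependymal and 3 astrocyte markers were lower, and 10 neuron markers higher. Several astrocyte markers are also made by radial glia. The part of these cell types in the values of the members was not tested.

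Markers of further cell types were counted in the same way. Oligodendrocyte lineage markers (*Gpr17* and *Olig1* highest) were higher in 6 of 6 cases, 1 at an unadjusted p under 0.05. Endothelial markers (*Slco1c1* and *Kdr*) were lower in 2 of 6, pericyte and fibroblast markers (*Pdgfrb* and *Col1a2*) in 5 of 6 and microglia markers (*Csf1r* and *Cx3cr1*) in 2 of 7, with 1 each at an unadjusted p under 0.05. Without PTU pup 1 the pericyte and fibroblast and the microglia list had 0 at that p, and the median log2 fold change of the pericyte and fibroblast list went from -0.07 to -0.28. Of 10 genes of cell proliferation 5 were higher and 5 lower, with a median log2 fold change of 0.01. Under the same total for every pup 9 of these 10 were higher, and 6 of 6 oligodendrocyte lineage, 5 of 6 endothelial, 4 of 6 pericyte and fibroblast and 6 of 7 microglia markers.

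**Figure D5:**
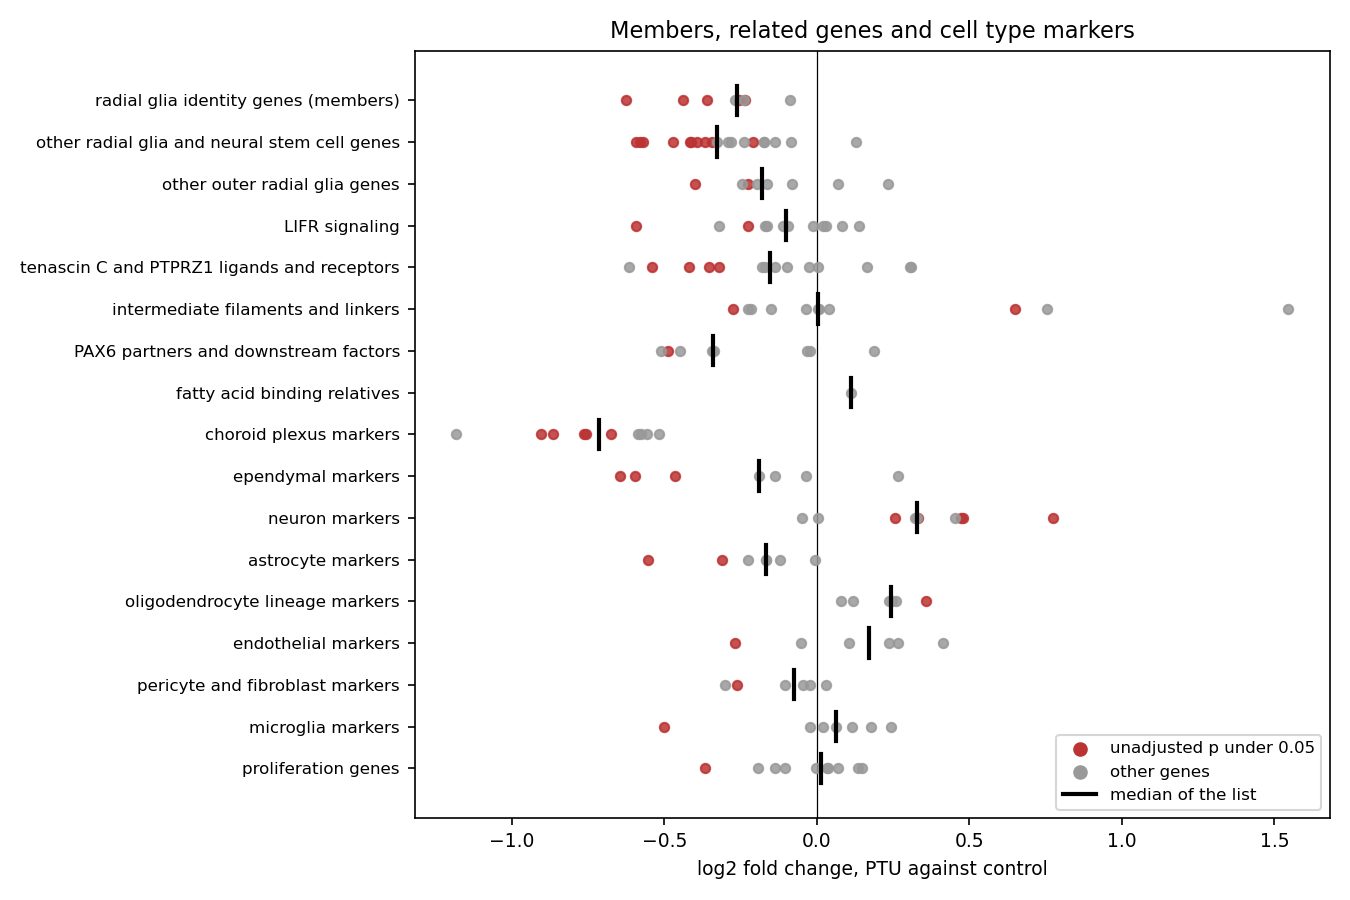
Log2 fold change in PTU exposed against control pups for each gene of the members' list, of the related lists and of the cell type markers, with genes at an unadjusted p under 0.05 in red, other genes in grey and the median of each list as a black bar. The 8 members and 18 of 19 other radial glia and neural stem cell genes lie below 0, as do all 10 choroid plexus markers, and 9 of 10 neuron markers lie above it.

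The transcripts most like the members across pups were named by their correlation, over the 13 pups and after centring on group means, with the mean profile of the members. These were *Adam17*, a membrane protease that sheds ligands and Notch (r = 0.90), *Rem1* (0.90, at a mean of 11.9 in controls and 20.6 in PTU exposed pups), *Tshr*, the receptor for thyrotropin (0.89), *Med25*, a subunit of the mediator complex (0.89), and *Ifih1*, a sensor of RNA (0.87). *Tshr* was at 1061 ± 165 (SD, n = 7) in controls and 751 ± 126 (SD, n = 6) in the exposed group, with a log2 fold change of -0.50 and an adjusted p of 0.132 in limma. Most like *Vim* were *Tmem216* (0.89), *Hacd1* (0.89), *RGD1562726* (0.89), *Inppl1* (0.86) and *Efcab14* (0.86). They are the highest of many correlations over 13 pups and describe these pups alone.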

How the data were processed

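Laser captured VZ tissue of 13 pups, 7 controls and 6 exposed to PTU, was used for RNA-Seq. The authors trimmed the reads, aligned them with STAR 2.7.8a to mRatBN7.2, estimated counts per transcript with the Partek expectation/maximization model, which shares out reads that match several transcripts, and applied a median ratio size factor to each pup; what they deposited is a signal of 0 or more per transcript and not raw counts. Whether strand was used in counting is not given in the sources used here. The deposited table also holds the authors' own comparison (p-value, FDR, ratio, fold change and group means), which was not used.

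Of 14716 transcripts, the 14606 with a mean of at least 10 were transformed to log2(normalized count + 1), a scale that understates changes of low transcripts, and compared with limma 3.58.1 in R 4.3.3 (empirical Bayes with a variance trend) without covariates, with Benjamini-Hochberg adjustment and a threshold of 0.05. Single members were compared by exact permutation of the pups over 1716 regroupings (smallest p 0.000583). Correlations used 100000 permutations within groups. The members and gene lists were chosen with earlier results of these data known. Named genes are all members; of the related lists, each gene at an unadjusted p under 0.05 and the gene of highest mean; of each marker list, the 2 genes of highest mean; and the 5 transcripts most like the members or *Vim*. *Stat3* and *Il6st* are in both the outer radial glia and the LIFR list, and *Gfap* in both the filament and the astrocyte list. Each is counted in both.

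The reads behind a pup were estimated from the smallest step between its low values. Of the values from 20 to 150, 88.9 to 90.5% were whole multiples of that step (tolerance 0.05), under the 95% set for recovering reads, so no count model was used. Both tests were tested on simulated data. Alternatives were other pseudocounts, filters and scalings, array weights, no variance trend, a replicate block, summed transcripts and leaving out each pup. Promoters were matched by symbol. Other steps ran in Python 3.11.15 with scipy 1.17.1, pandas 2.3.3 and numpy 2.4.6, and plots in matplotlib 3.10.9.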

Additional observations from a re-analysis of the deposited data

Results flagged for a closer look

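Of 16 groups of member values (8 members in 2 groups), 2 held a pup farther from its group than the Dixon criterion allows, which by chance flags about 1 in 20 groups. *Pax6* in PTU pup 1 was the lowest of its group at 1423, with a gap to the next pup of 0.634 of the group's range (critical value 0.625). *Lifr* in control pup 1 was the highest of its group at 759, with a gap of 0.63 of the range (critical value 0.568).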

How the results depend on the processing

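Members past the adjusted threshold numbered 0 under every setting run. Over all transcripts the count was 0, but 40 with array weights, 18 with the replicate number as a block (replicate block, a fit to which control pup 7 adds nothing as its number is unpaired) and 0 to 179 with 1 pup left out, 179 without PTU pup 2 and 7 without control pup 6. The block gave adjusted p-values of 0.0669 for *Pax6* and 0.0725 for *Hopx*. The numbers name pups of different litters, and deviations of same-numbered pups correlated at -0.07 to 0.198. Members lower at an unadjusted p under 0.05 numbered 5, but 0 with the same total for every pup, 3 with no variance trend, 4 with array weights, 4 with the 3 highest transcripts left out of the total, 6 with the replicate block and 3 to 6 with 1 pup left out. Of the 14606 tested transcripts, 1198 were lower at that p in the main fit, 81 with the same total and 1121 with no variance trend. With array weights there were 1521, with the 3 highest transcripts left out of the total 1123 and with the block 1485. With 1 pup left out they numbered 897 to 1495. The sign of *Lifr* turned with the same total (0.11) and without control pup 1 (0.0244), within -0.146 to 0.0244 over the pups left out. Signs also turned for *Fam107a* (0.00507) and *Ptpn11* (0.19) with the same total, for *Ptpn11* with array weights (0.00829) and without control pup 6 or PTU pup 1 (-0.036 to 0.0257 over the pups left out), and for *Fabp3* without control pup 4 or PTU pup 1 (-0.0565 to 0.337 over the pups left out). The other 7 members kept their sign under all 24 alternatives, *Vim* between -0.41 and -0.16, *Pax6* between -0.50 and -0.24 and *Hopx* between -0.71 and -0.42, while with the same total *Nes* came to -0.0326, *Fabp7* to -0.0378, *Tnc* to -0.053 and *Prom1* to -0.0665. Of the related genes *Emx2*, *Lhx2*, *Eomes*, *Sox9*, *Hes1* and *Phgdh* passed the adjusted threshold under at least 1 of array weights, the block or leaving out PTU pup 2. The causes were not tested.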
